A study of Mus musculus with 24 samples.

Results

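The genes described here are 45 genes of G2 phase, mitosis and the spindle: the cyclins and kinases that bring cells into mitosis, the proteins that attach and separate chromosomes, and the proteins that divide the cell. They were chosen as a list of gene symbols. All 45 were found among the 48321 gene symbols counted, and all 45 were among the 21477 genes that had enough reads to be tested.

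The samples were GFP+ cells that had been sorted from adult hippocampus of C57BL/6 mice, and their RNA was sequenced. Mice of both groups carried Hes5::CreERT2, a tamoxifen-dependent Cre under control of the Notch target gene Hes5, and the Cre reporter Rosa26R-CAG::GFP. Wild-type (WT) mice were Notch2 wt/wt and conditional knockout (CKO) mice Notch2 flox/flox, and both received tamoxifen for 5 days followed by 1 day of chase. Each sample was a pool of cells from several animals, with 3 pools per genotype. Each pool was sequenced as 2 Smart-Seq2 libraries on 2 lanes each. The Cre acts in whichever cells express Hes5, so a pool holds recombined cells of that lineage and not a pure cell type. In such pools, fewer cells in mitosis and less RNA per mitotic cell cannot be told apart.

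Most adult hippocampal neural stem cells are quiescent, and their progeny, the intermediate progenitors, divide. Entry into mitosis is driven by Cdk1 bound to cyclins A2, B1 and B2. The spindle assembly checkpoint then holds Cdc20, the activator of the anaphase-promoting complex, until every kinetochore is attached to the spindle. Release of Cdc20 leads to destruction of cyclin B and to the separation of the chromosomes. Many of these genes are kept off in quiescent cells by the DREAM complex and switched on in G2 by B-Myb (Mybl2) and Foxm1, through a promoter element named CHR (cell cycle genes homology region) that is often preceded by CCAAT boxes, the binding site of NF-Y.

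That element was visible in the sequence of the genes. RefSeq promoter windows (GRCm38.p6, 300 bases each, from 250 before to 50 after the start site) were at hand for 38 of the 45. CHR was searched as TTTGAA or TTTAAA and the CCAAT box as CCAAT, on both strands, and matches of different motifs were counted separately even where they shared bases. A CHR match was found in 31 of the 38 windows (81.6%), against 27.8% of 27025 genes with a window. CCAAT was found in 29 (76.3%, against 37.9%), and 22 windows (57.9%, against 12.2%) held at least 2 copies. Both motifs stood in 27 windows (71.1%, against 10.9%). The CHR matches of the 45 genes also lay close to the start site: 72.3% of their 47 matches began within 50 bases of it, against 24.7% of 9730 matches over all genes, and their median position was base -14. Their 74 CCAAT matches lay further out than their CHR matches, at a median of base -67.5, against -91 for 14907 matches over all genes. Of the 74, 35.1% began within 50 bases of the start site, against 28.3% over all genes. Among 36 genes of DNA replication and S phase with a window, 22.2% had a CHR match. CCAAT was found in 61.1% of those 36, and 36.1% held at least 2 copies. In a wider list of G2 and mitosis genes, described further on, 55 had a window. Of these, 56.4% had a CHR match, 63.6% had CCAAT and 34.5% held at least 2 copies. Both motifs stood in 40% of the 55, against 10.9% of all genes. Shares of CHR, of CCAAT and of both above those of all genes were thus not particular to the 45. The site of Rbpj, the DNA-binding partner of activated Notch receptors (searched as GTGGGAA), was found in 2 windows (5.26%, against 6.39% of all), those of Prc1 and Ckap2l. A match describes the letters of the window and is not evidence that a factor binds there.

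**Figure D1:**
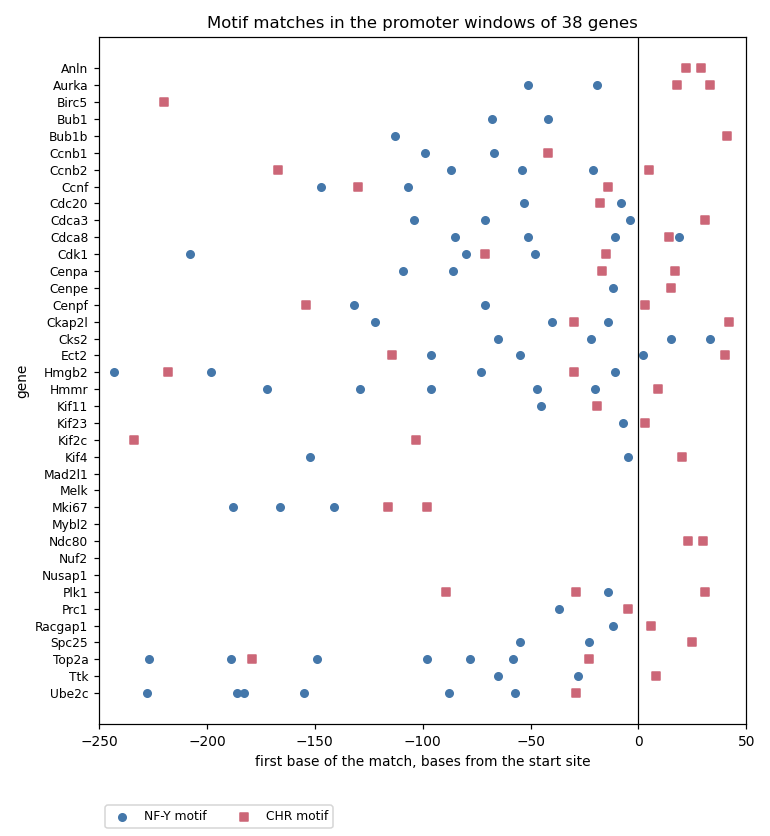
Position of motif matches in the promoter windows of 38 genes, in bases from the start site (vertical line, first base of each match). Blue circles mark the CCAAT box (NF-Y motif) and red squares CHR. CHR matches of these genes gather around the start site, at a median of base -14, and CCAAT matches upstream of it, at a median of base -67.5. Over all genes with a window the medians were -128 and -91. The window holds 250 bases before the start site and 50 after it.

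The promoters of Bub1, Mki67, Top2a and Prc1 are shown because these genes had the smallest p-values of the 45 in the comparison of genotypes described further on. They are written 5′ to 3′ in the direction of the gene, with CHR, CCAAT and Rbpj matches on either strand in capitals. Bub1 is from chr2:127831810-127832109 (minus strand), Mki67 from chr7:135716330-135716629 (minus strand), Top2a from chr11:99024140-99024439 (minus strand) and Prc1 from chr7:80294201-80294500 (plus strand).
Bub1: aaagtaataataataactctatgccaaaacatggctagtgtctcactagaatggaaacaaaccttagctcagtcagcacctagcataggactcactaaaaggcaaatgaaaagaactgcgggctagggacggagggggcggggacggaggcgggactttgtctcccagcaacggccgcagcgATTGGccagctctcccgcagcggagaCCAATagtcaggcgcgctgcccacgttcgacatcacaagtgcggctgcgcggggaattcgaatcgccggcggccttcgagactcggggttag
Mki67: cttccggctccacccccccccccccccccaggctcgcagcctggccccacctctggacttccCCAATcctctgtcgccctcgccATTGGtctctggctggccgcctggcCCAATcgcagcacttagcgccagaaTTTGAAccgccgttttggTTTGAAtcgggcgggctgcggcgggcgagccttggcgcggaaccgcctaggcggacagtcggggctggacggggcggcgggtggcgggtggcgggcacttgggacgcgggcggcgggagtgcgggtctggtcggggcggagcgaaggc
Top2a: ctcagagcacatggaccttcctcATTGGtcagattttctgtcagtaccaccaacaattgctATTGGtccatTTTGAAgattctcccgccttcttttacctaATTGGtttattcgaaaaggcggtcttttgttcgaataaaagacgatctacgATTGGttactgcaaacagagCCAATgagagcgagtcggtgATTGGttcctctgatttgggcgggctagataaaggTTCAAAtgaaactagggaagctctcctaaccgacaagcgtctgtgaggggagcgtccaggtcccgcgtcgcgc
Prc1: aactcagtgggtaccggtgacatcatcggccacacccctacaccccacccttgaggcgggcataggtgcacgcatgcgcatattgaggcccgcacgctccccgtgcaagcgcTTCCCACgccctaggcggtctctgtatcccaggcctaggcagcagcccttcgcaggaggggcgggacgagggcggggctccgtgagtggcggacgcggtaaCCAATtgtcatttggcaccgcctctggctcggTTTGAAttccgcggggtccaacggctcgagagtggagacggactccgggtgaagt
The Top2a window held 6 CCAAT copies and CHR matches at bases -179 and -23. In Mki67, 3 CCAAT copies between bases -188 and -141 were followed by CHR matches at bases -116 and -98. Prc1 had 1 CCAAT copy at base -37 and CHR at base -5, and its window also holds the Rbpj letters, as TTCCCAC on the strand shown. Bub1 had CCAAT copies at bases -68 and -42 and no CHR letters in this window.

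Reads in genes numbered 40366579 to 53984963 per pool. Levels are given in CPM, reads scaled to the TMM-adjusted size of each pool, on which scale 1 read is worth 0.0175 to 0.0265 CPM. Notch2 itself, the check of the labels, had 99.3, 146 and 303 CPM in WT pools 1, 2 and 3 and 65.3, 116 and 121 CPM in CKO pools 1, 2 and 3, so the genotypes overlapped (log2 fold change -0.86, SE 0.45, edgeR adjusted p = 0.79). WT pool 3 stood apart in how its libraries agreed. Its 2 libraries differed by more than 10-fold for 22 of the 45 genes (48.9%), against 29.9% of 10334 tested genes in the same range of levels. In the other 5 pools, 1 to 9 of the 45 genes differed that much (2.22% to 20%, against 2.54% to 7.24%), and only in CKO pool 1 was the share of the 45 not above that of the other genes. Fold changes of the 45 genes given with their errors are therefore also given without WT pool 3. The labels attach 20K, 12K and 2K to WT pools 1, 2 and 3 and 19K, 4K and 9K to CKO pools 1, 2 and 3, and what these tags count is not given in the sources used here.

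**Figure D2:**
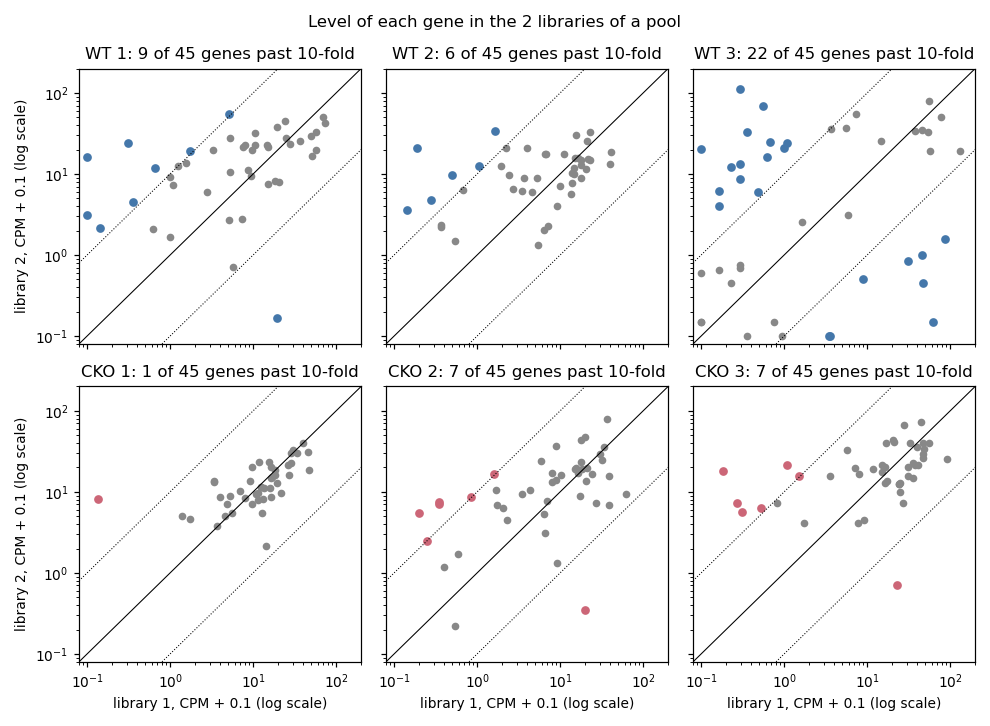
Level of each of the 45 genes in library 1 (x axis) and library 2 (y axis) of a pool, in CPM + 0.1 on log axes, 1 panel per pool. The solid line marks equal levels, dotted lines a 10-fold difference, and coloured points (blue in WT, red in CKO) lie past it: 22 of 45 in WT pool 3, 1 of 45 in CKO pool 1.

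The split in WT pool 3 ran in both directions, with 8 of the 22 genes higher in library 1 and 14 higher in library 2. Tpx2, a spindle assembly factor that activates Aurora A, had 0.194 CPM in library 1 and 112 CPM in library 2. Nuf2, a subunit of the Ndc80 kinetochore complex, had 62.3 and 0.0498 CPM, and Incenp, the scaffold of the chromosomal passenger complex, 85.7 and 1.49 CPM. Nearly all reads of such a gene in this pool thus came from 1 of its 2 libraries. The sum over the 45 genes did not show it, at 793 CPM in library 1 and 804 CPM in library 2.

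No gene of the list passed the comparison of CKO with WT pools after adjustment for the 21477 genes tested, nor did any other gene. By edgeR's quasi-likelihood test the smallest adjusted p among the 45 was 0.79, and 0 of 21477 genes (0%) were called. DESeq2 also called 0 of the 45 and called 124 of all genes. Below that threshold the list leaned towards higher levels in CKO pools. Log2 fold changes were above 0 for 29 of 45 genes (64.4%), against 47.2% of all genes tested, with a median of 0.23 against -0.06. At an unadjusted p under 0.05, 6 of 45 genes were higher in CKO pools (13.3%, against 3.01% of all genes tested): Bub1, Cenpe, Kif11, Prc1, Mki67 and Top2a. Birc5 alone was lower at that level (2.22%, against 2.9%). Those 6 genes and Ckap2l had all 3 CKO pools above all 3 WT pools, 7 of 45 (15.6%) against a background of 7.67%. None of the 45 had all 3 CKO pools below all WT pools, where the background was 8.17%.

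**Figure D3:**
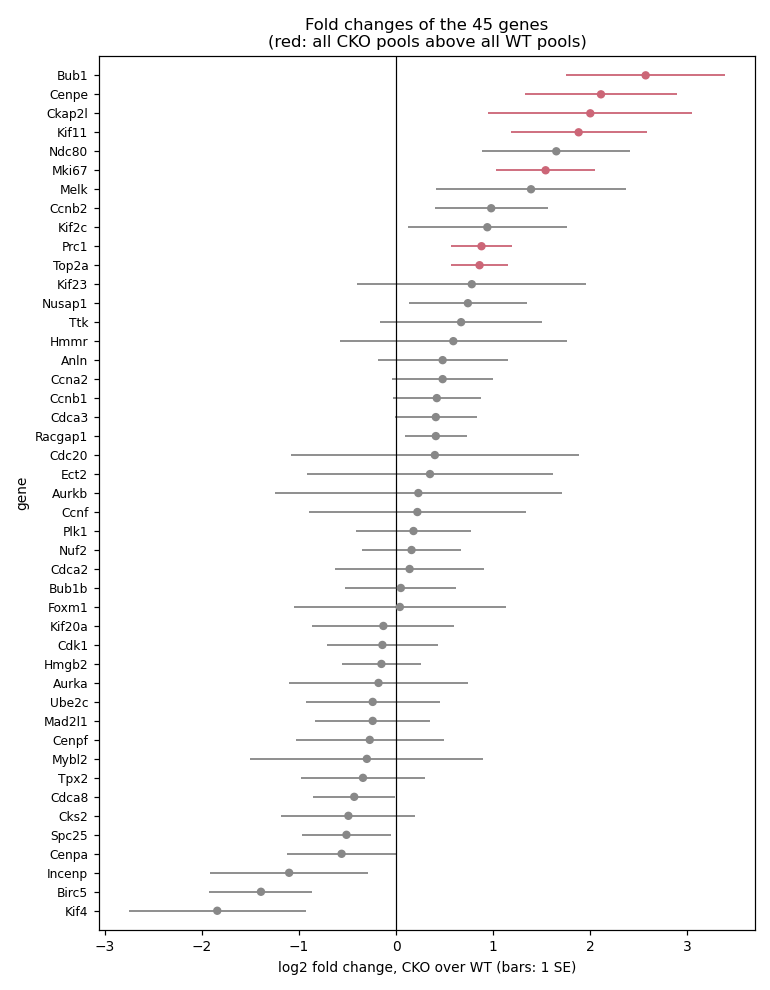
Log2 fold change of each of the 45 genes, CKO over WT, with bars of 1 SE from the edgeR fit over 3 pools per genotype. Red points mark the 7 genes whose 3 CKO pools all lay above all 3 WT pools. No gene passed an adjusted p of 0.05.

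With 1 pool other than CKO pool 3 left out, 4 to 8 genes were higher at an unadjusted p under 0.05. Their shares were 8.89% to 17.8%, against 1.73% to 6.65% of all genes tested. Leaving out CKO pool 3 moved that count further. Without WT pool 3, 8 genes were higher at that p (17.8%, against 4.56% of all genes tested in that fit) and 0 lower (0%, against 3.87%). The median was then 0.34. All CKO pools lay above both remaining WT pools for 11 of 45 genes (24.4%, against 14.5% of all genes). CKO pool 3 had the highest level of 14 of the 45 genes and the lowest level of 1. Without it, 2 genes were higher at that p (4.44%, against 2.09% of all), Bub1 and Prc1, and the median log2 fold change was 0.07. In library 1 of each pool alone, 4 genes were higher at that p, Bub1, Ndc80, Ckap2l and Anln (9.09% of the 44 tested, against 3.59% of all). Birc5 was lower (2.27%, against 2.42% of all). In library 2 alone, only Kif11 was higher (2.22%, against 1.9% of all) and 0 were lower (0%, against 1.57% of all).

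**Figure D4:**
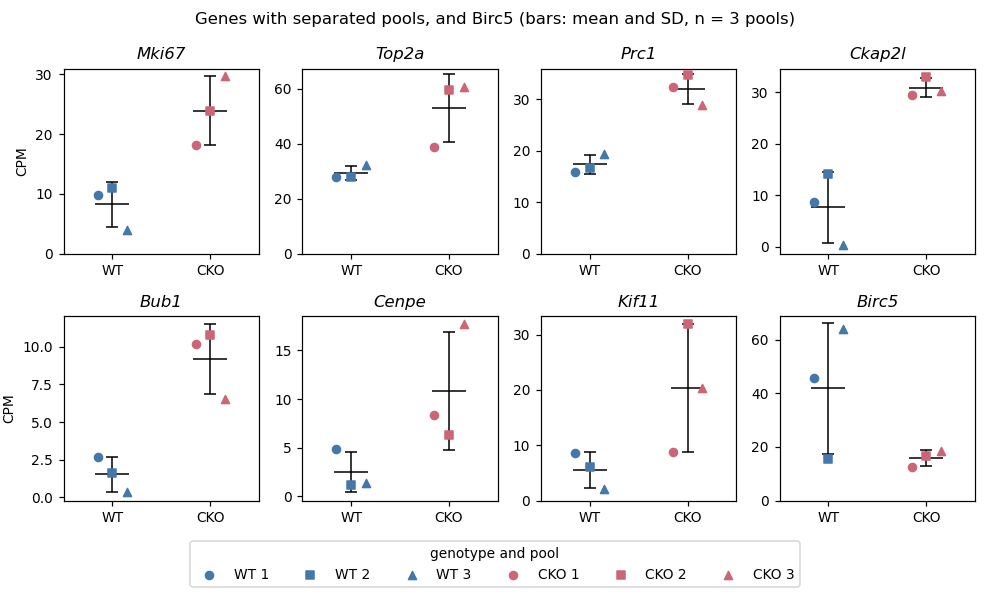
Level in each pool of the 7 genes with all CKO pools above all WT pools, and of Birc5, in CPM (each axis its own scale). Symbols mark the pool number, blue WT and red CKO, with the mean as a line and the SD as a bar (n = 3 pools per genotype). For Bub1 the WT pools lie between 0.344 and 2.65 CPM and the CKO pools between 6.53 and 10.8 CPM.

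Among the genes of chromosome structure and turnover, Mki67 (chromosome 7, 135689784 to 135716361, minus strand) encodes Ki-67, a coat protein of mitotic chromosomes used as a marker of cycling cells. It had 9.79, 11.0 and 3.95 CPM in WT pools 1, 2 and 3 and 18.1, 23.9 and 29.7 CPM in CKO pools 1, 2 and 3. Every CKO pool lay above every WT pool (log2 fold change 1.54, SE 0.51, edgeR unadjusted p = 0.0188, adjusted p = 0.79). The difference was 1.2 without WT pool 3, and 1.14 and 1.54 in libraries 1 and 2 alone. In library 1 the genotypes overlapped, with WT pool 1 at 9.29 CPM and CKO pool 2 at 8.92 CPM. In library 2 they did not. The gene overlaps Gm45240 on the other strand, whose reads cannot be told from its own by strand.

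Top2a (chromosome 11, 98992943 to 99024189, minus strand), the DNA topoisomerase that disentangles sister chromosomes, had 27.8, 27.8 and 32.2 CPM in WT pools and 38.8, 59.6 and 60.7 CPM in CKO pools. With libraries summed, the WT pools lay close together, and the lowest CKO pool was still above them (log2 fold change 0.86, SE 0.29, edgeR unadjusted p = 0.0212, adjusted p = 0.79). Without WT pool 3 it was 0.93, and the libraries alone gave 1.22 and 0.66. WT pool 3 had 7.32 CPM in library 1 and 54.9 CPM in library 2. In library 2 it was above CKO pool 1, which had 31.3 CPM. The overlapping small RNA genes Gm23451 and Gm26394 could share its reads. Hmgb2, a chromatin protein abundant in proliferating cells, had 31.6, 18.7 and 39.9 CPM in WT and 24.1, 19.9 and 37.4 CPM in CKO pools, which overlapped over nearly their whole range (log2 fold change -0.15, SE 0.41, edgeR adjusted p = 0.938, and 0.11 without WT pool 3). Of the 5 genes of this group, which include Cdca2 and Cdca3, 4 were above 0, between -0.15 and 1.54.

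Among the genes of the spindle checkpoint and its release, Bub1 (chromosome 2, 127801122 to 127831865, minus strand), the checkpoint kinase that builds on unattached kinetochores, had the largest log2 fold change of the 45. Its levels were 2.65, 1.63 and 0.344 CPM in WT pools and 10.2, 10.8 and 6.53 CPM in CKO pools. With libraries summed, the genotypes were well apart at a low level (log2 fold change 2.57, SE 0.82, edgeR unadjusted p = 0.0161, adjusted p = 0.79). The difference had the same sign in both libraries, 4.61 in library 1 and 1.74 in library 2, and was 2.09 without WT pool 3. Nearly all reads of each WT pool came from 1 of its libraries. Libraries 1 and 2 had 6 and 128 reads in WT pool 1, 1 and 68 in WT pool 2, and 13 and 0 in WT pool 3. In library 2, WT pool 1 and CKO pool 3 both had 4.35 CPM. Bub1 passed an unadjusted p of 0.05 in 11 of 12 alternative settings, more often than any other gene of the list examined in this way. The setting in which it did not pass was library 2 alone. All settings reuse the same 6 pools and are not independent of each other.

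The other checkpoint genes overlapped between genotypes. Cdc20, the target of the checkpoint, had 30.9, 23.2 and 0.0265 CPM in WT pools and 32.3, 7.29 and 31.9 CPM in CKO pools. The lowest value, in WT pool 3, was a single read. Mad2l1, which encodes the checkpoint protein that binds Cdc20, was highest in WT pool 1 at 37.6 CPM and lowest in WT pool 3 at 8.69 CPM. Per kilobase of exon, Cdc20 was the highest of this group at 11.2 CPM per kilobase (mean of 6 pools), and the kinase gene Ttk the lowest at 0.935. Ube2c, the ubiquitin-conjugating enzyme that serves the anaphase-promoting complex, and Bub1b were between them, and 4 of the 6 genes were above 0.

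In the centromere and kinetochore group, Cenpe (chromosome 3, 135212537 to 135273611, plus strand) encodes the kinesin that carries chromosomes along the spindle to its middle. It had 4.89, 1.18 and 1.43 CPM in WT pools and 8.33, 6.35 and 17.7 CPM in CKO pools. The gap between the highest WT pool and the lowest CKO pool was small compared with the range of the CKO pools (log2 fold change 2.11, SE 0.78, edgeR unadjusted p = 0.0303, adjusted p = 0.79). The log2 fold change was 1.82 without WT pool 3, 1.61 without CKO pool 3, and 1.68 and 2.55 in libraries 1 and 2 alone. In library 1 the genotypes overlapped, with WT pool 1 at 7.24 CPM and CKO pool 2 at 1.58 CPM. In library 2 they did not.

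Cenpf, a large kinetochore protein that accumulates in G2, had 11.2, 12.5 and 58.7 CPM in WT pools and 10.7, 20.8 and 36.9 CPM in CKO pools. WT pool 3 was the highest of all, and the sign of the log2 fold change turned on it (-0.27, SE 0.76, edgeR adjusted p = 0.939, and 0.94 without that pool). Spc25 and Ndc80, subunits of the complex that grips spindle microtubules, stood far apart per length, at 14.0 and 0.85 CPM per kilobase. Spc25 was the highest of all 45 genes on that scale. In Ndc80, WT pools had 1.33, 4.74 and 1.93 CPM and CKO pools 9.14, 3.41 and 12.6 CPM, with CKO pool 2 below WT pool 2. Cenpa, the histone H3 variant that marks centromeres, was highest in WT pool 1 at 32.9 CPM and lowest in CKO pool 2 at 6.64 CPM. Of the 6 genes of this group, 3 were above 0, between -0.56 and 2.11.

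Among spindle motors and microtubule proteins, Kif11 (chromosome 19, 37376403 to 37421859, plus strand) encodes Eg5, the kinesin that pushes the spindle poles apart. It had 8.53, 6.02 and 2.09 CPM in WT pools and 8.84, 31.9 and 20.4 CPM in CKO pools. CKO pool 1 lay only just above WT pool 1, so the separation of the genotypes was by a narrow margin (log2 fold change 1.88, SE 0.70, edgeR unadjusted p = 0.0317, adjusted p = 0.79). The log2 fold change was 1.47 without WT pool 3, and 1.62 and 1.92 in libraries 1 and 2 alone. In library 1 the genotypes overlapped, with WT pool 1 at 5.22 CPM and CKO pool 1 at 3.24 CPM. In library 2 they did not. Levels differed between libraries, as in CKO pool 3 with 5.69 and 32.5 CPM. The models AC137605.4 and AC137605.6 overlap the gene.

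Ckap2l (chromosome 2, 129268210 to 129297212, minus strand), also named radmis, encodes a spindle protein of dividing neural progenitors. It had 8.64, 14.1 and 0.318 CPM in WT pools and 29.5, 33.0 and 30.3 CPM in CKO pools. The 3 CKO pools lay within a few CPM of each other and well above the WT pools, which spread widely, and the gene did not pass an unadjusted p of 0.05 (log2 fold change 2.0, SE 1.05, edgeR unadjusted p = 0.0966, adjusted p = 0.79). Without WT pool 3 the log2 fold change was 1.44. The antisense gene Gm14024 overlaps it, and reads of the pair cannot be told apart by strand. Its 2 libraries disagreed in CKO pool 2 as well, at 61.2 and 9.31 CPM, and library 1 alone gave a log2 fold change of 3.38 and library 2 of 0.88.

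Kif4, a chromosome-bound kinesin, had 1.78, 6.87 and 19.2 CPM in WT pools and 3.28, 1.37 and 3.15 CPM in CKO pools. WT pool 3 was again the highest by far. Kif4 had the lowest log2 fold change of the 45, -1.84, which was -0.73 without WT pool 3. Per length, Tpx2 was the highest of the 7 genes of this group, at 6.33 CPM per kilobase, and Kif4 the lowest, at 1.08. Hmmr, a microtubule-binding protein, ranged from 0.397 CPM in WT pool 3 to 13.8 CPM in WT pool 2, wider than the CKO pools, which had 5.53 to 10.2 CPM. Of the 7 genes, 5 were above 0, between -1.84 and 2.0.

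Among genes of the central spindle and cytokinesis, Prc1 (chromosome 7, 80294450 to 80316259, plus strand) encodes the protein that bundles the microtubules between the separating chromosomes. It had 15.8, 16.7 and 19.4 CPM in WT pools and 32.4, 34.7 and 28.8 CPM in CKO pools. With libraries summed, both genotypes were tight, and the lowest CKO pool was well above the highest WT pool (log2 fold change 0.88, SE 0.31, edgeR unadjusted p = 0.0236, adjusted p = 0.79). Without WT pool 3 it was 0.97. The libraries gave unequal values, 1.95 in library 1 and 0.29 in library 2. Libraries 1 and 2 had 7.49 and 21.2 CPM in WT pool 1 and 1.53 and 34 CPM in WT pool 2. In library 2, WT pool 2 was above CKO pools 1 and 3, which had 29.9 and 22.5 CPM. The gene overlaps Rccd1 and 6330403N20Rik on the other strand.

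Racgap1, a subunit of centralspindlin, the complex that positions the cleavage furrow, was the highest of this group per length at 5.15 CPM per kilobase. Its partner Kif23 was the lowest of all 45 genes, at 0.48. Racgap1 had 34.6, 22.2 and 37.2 CPM in WT pools and 41.2, 34.7 and 48.8 CPM in CKO pools, where CKO pool 2 lay between WT pools. Ect2, the exchange factor that activates RhoA at the furrow, had 0.106 CPM in WT pool 3, from 4 reads, and 4.78 to 16.2 CPM in the other 5 pools. Kif20a and Anln were highest in WT pool 3, at 33.8 and 37.1 CPM. Of these 6 genes, 5 were above 0, between -0.13 and 0.88.

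For the cyclins, Cdk1 and their partners, which drive entry into mitosis, the pools of the genotypes overlapped. Ccnb1 (cyclin B1) had 37.3, 15.5 and 21.8 CPM in WT pools and 25.8, 26.0 and 47.8 CPM in CKO pools (fold change 0.42 on the log2 scale, SE 0.45, edgeR adjusted p = 0.844, and 0.32 without WT pool 3). Cdk1 had 39.9, 11.0 and 13.0 CPM in WT pools and 16.4, 16.3 and 25.3 CPM in CKO pools. Its highest value was in WT pool 1, and its log2 fold change turned from -0.14 (SE 0.57, edgeR adjusted p = 0.957) to 0.70 without that pool, and was -0.41 without WT pool 3. Ccnb2 (cyclin B2) was the highest of this group per length at 10.5 CPM per kilobase. Ccnf, which encodes the F-box protein cyclin F and no activator of a Cdk, was the lowest at 1.01. Of the 6 genes, 4 were above 0, between -0.49 and 0.98.

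Of the 3 other mitotic kinases, 2 were above 0, between -0.18 and 1.39, and all overlapped between genotypes. Plk1 (polo-like kinase 1) had 10.4, 4.77 and 19.3 CPM in WT pools and 12.5, 9.78 and 16.7 CPM in CKO pools (fold change 0.18 on the log2 scale, SE 0.59, edgeR adjusted p = 0.947, and 0.77 without WT pool 3). The sign was not stable between libraries, at -0.55 in library 1 and 1.32 in library 2. Aurka was lowest in WT pool 2 at 1.13 CPM and highest in WT pool 1 at 20.2 CPM. Melk, a kinase of cycling progenitors, had 0.291 CPM in WT pool 3 and 4.26 to 12 CPM in the other 5.

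The chromosomal passenger complex, made of Aurora B (Aurkb), survivin (Birc5), borealin (Cdca8) and Incenp, corrects faulty attachments and later acts in cytokinesis. It was the only group with more genes below 0 than above, 3 of 4, between -1.39 and 0.23. Birc5 (chromosome 11, 117849251 to 117855743, plus strand) had 45.8, 15.6 and 63.9 CPM in WT pools and 12.5, 16.6 and 18.6 CPM in CKO pools. WT pools 1 and 3 were high, while WT pool 2 lay within the CKO range (log2 fold change -1.39, SE 0.53, edgeR unadjusted p = 0.034, adjusted p = 0.79). In WT pool 3 the 2 libraries had 131 and 19.3 CPM, and without that pool the log2 fold change was -0.96 and no longer passed an unadjusted p of 0.05. Library 1 alone gave -2.15 and library 2 alone -0.44. Aurkb had 18.7, 19 and 0.0265 CPM in WT pools and 15.6, 4.15 and 24.7 CPM in CKO pools (fold change 0.23 on the log2 scale, SE 1.48, edgeR adjusted p = 0.972). The 0.0265 CPM of WT pool 3 was a single read, and without that pool the log2 fold change was -0.35. Birc5 and Aurkb, partners in this complex, thus stood at opposite extremes in WT pool 3, the highest and the lowest of the 6 pools.

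The transcription factors Foxm1 and Mybl2, which switch on G2 genes, were among the lowest of the 45 genes, at 0.554 and 0.6 CPM per kilobase. Foxm1 had 4.65, 4.34 and 0.424 CPM in WT pools and 6.05, 0.718 and 2.93 CPM in CKO pools (fold change 0.04 on the log2 scale, SE 1.09, edgeR adjusted p = 0.993, and -0.47 without WT pool 3). Mybl2 had 1.21, 0.873 and 7.13 CPM in WT pools and 3.19, 0.269 and 4.01 CPM in CKO pools. Both were lowest or near their lowest in CKO pool 2, and the genotypes overlapped for each.

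**Figure D5:**
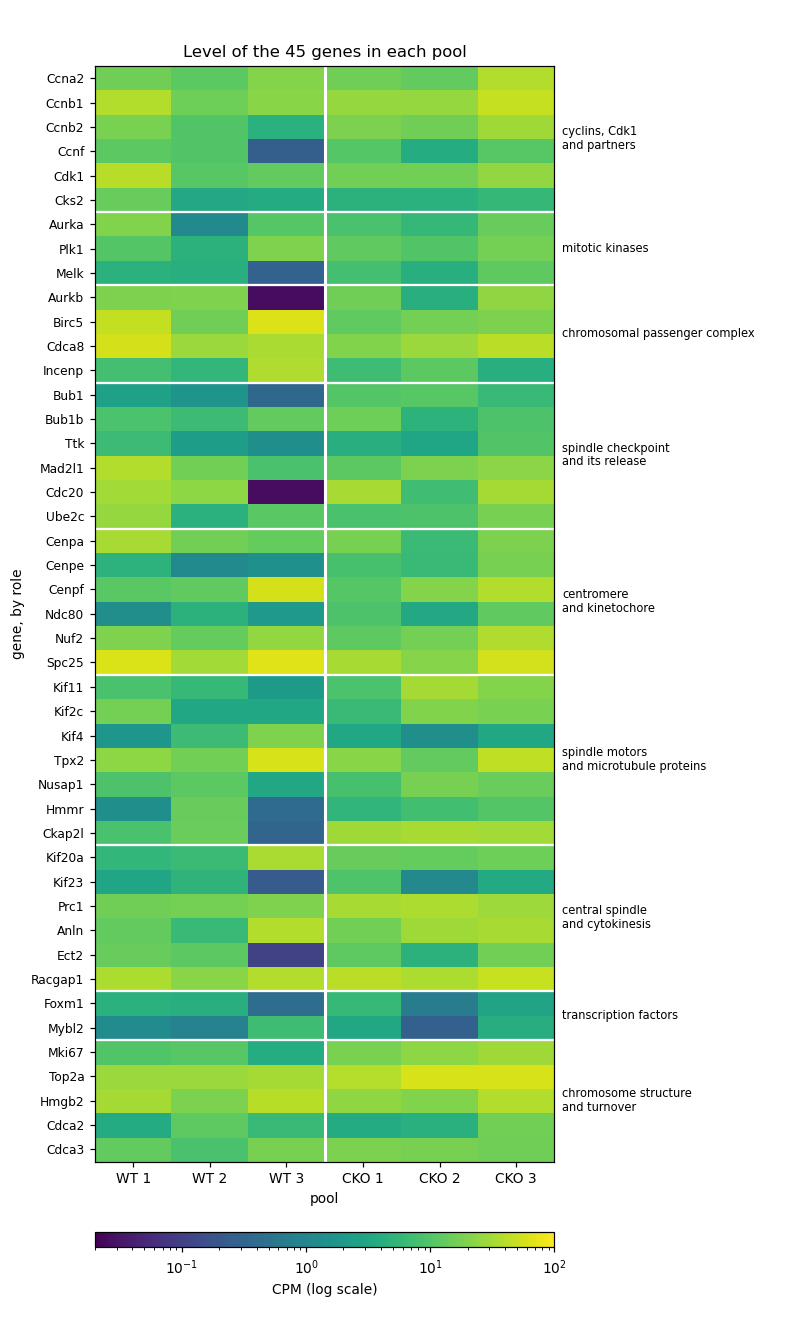
Level of each of the 45 genes (rows, by role) in each pool (columns, WT left and CKO right of the white line), in CPM on a log colour scale. WT pool 3 holds the darkest cells, with 10 genes under 1 CPM, and CKO pool 3 has the highest level of 14 genes.

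Summed over the 45 genes, WT pools 1, 2 and 3 had 795, 497 and 752 CPM and CKO pools 1, 2 and 3 had 671, 658 and 1018 CPM. The means were 681 ± 161 and 782 ± 204 CPM (SD, n = 3 pools each), and the genotypes overlapped. WT pool 2 was the lowest and CKO pool 3 the highest. WT pool 3 was high in sum although 16 of the 45 genes had their lowest level in it, and 11 had their highest there. The groups of genes did not share an order of pools: the chromosomal passenger complex summed to 130.7, 68.1 and 133.3 CPM in WT pools and 55.4, 60.2 and 88.4 CPM in CKO pools, and chromosome structure genes to 78.2 to 100 CPM in WT and 103.6 to 160 CPM in CKO pools. The latter was the only group whose sums did not overlap between genotypes. It holds Mki67 and Top2a, already described as separated, while Hmgb2, Cdca2 and Cdca3 overlapped.

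Other genes of the pathway were described from a wider list of 69 G2 and mitosis genes, none of them among the 45. In it, 48 of 69 genes (69.6%) had a log2 fold change above 0, with a median of 0.58 (0.75 without WT pool 3). At an unadjusted p under 0.05, 5 were higher (7.25%, against 3.01% of all genes tested) and 0 lower (against 2.9%). All CKO pools lay above all WT pools for 16 (23.2%, against 7.67%) and below them for 1 (1.45%, against 8.17%), Cks1b, which was picked out after its values were seen. Lmnb1, which encodes lamin B1 of the nuclear envelope, had 2.59, 2.34 and 3.36 CPM in WT pools and 12.8, 8.08 and 8.97 CPM in CKO pools (fold change 1.85 on the log2 scale, SE 0.52, edgeR adjusted p = 0.79). It passed in DESeq2, with an adjusted p of 0.0115, but the log2 fold change was 0.66 from library 1 and 2.29 from library 2. Lin9, a subunit of the MuvB core that reads CHR elements, had 2.69, 6.09 and 4.82 CPM in WT pools and 15.5, 17.0 and 9.82 CPM in CKO pools (fold change 1.63 on the log2 scale, SE 0.53, edgeR adjusted p = 0.79). Here library 1 gave 3.0 and library 2 0.63. The other 3 were Smc2 (a condensin subunit, log2 fold change 1.02), Ckap5 (a microtubule polymerase, 0.79) and Hjurp (the chaperone of Cenpa, 0.68, with 1.43 in library 1 and 0.44 in library 2). Each of the 5 was higher in all 3 CKO pools.

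For 45 genes of DNA replication and S phase, the phase before G2, 20 (44.4%) were above 0 and the median log2 fold change was -0.20 (-0.01 without WT pool 3). That is near the share of all genes tested, 47.2%. At an unadjusted p under 0.05, 2 were higher (4.44%, against 3.01% of all genes tested) and 1 lower (2.22%, against 2.9%). Pools did not overlap for 3 higher and 3 lower genes (6.67% each, against 7.67% and 8.17%). The genes past that p were picked out after their values were seen: Ccne1 (cyclin E1, log2 fold change 2.32, edgeR adjusted p = 0.79), Uhrf1 (1.31) and, lower, Rfc2 (-0.68). The median of the S phase genes turned to 0.15 in library 1 and 0.10 in library 2 taken alone. Whether the G2 and S phase lists differ was not tested.

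Markers of the cells that such a sort could hold were read beside these values. The summed level of 6 markers of intermediate progenitors, the dividing cells of the lineage, was 167 to 221 CPM in WT and 232 to 305 CPM in CKO pools, without overlap, although only 3 of the 6 were above 0. Sox11 made up much of it, at 48.7 to 88.6 CPM in WT and 103 to 160 CPM in CKO pools, while Eomes had 2.24 to 11.9 and 6.59 to 10.2 CPM. Markers of stem cells and radial glia (6 of 10 above 0) summed to 5836 to 10700 CPM in WT and 9149 to 13294 CPM in CKO pools, and those of astrocytes (5 of 8) to 6550 to 9722 and 9211 to 13898 CPM. Markers of other glia were abundant as well: oligodendrocyte precursors (3 of 10) at 2372 to 3650 and 1467 to 4254 CPM, and oligodendrocytes (3 of 9) at 2388 to 6445 and 3212 to 5600 CPM.

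CKO pool 3, the highest pool for 14 of the 45 genes, also stood at an extreme in several marker lists. It had the highest level of the 10 microglia markers, at 726 CPM against 255 to 375 CPM in the other 5 pools, and the lowest of oligodendrocyte precursors, at 1467 CPM. It was also the highest in stem cell and radial glia markers (13294 CPM, against at most 10700 CPM), astrocyte markers (13898 CPM, against at most 10411 CPM) and intermediate progenitor markers (305 CPM, against at most 297 CPM). Of the microglia markers, 8 of 10 were above 0, and Aif1 had 0 reads in at least 1 pool. Neuroblast markers (3 of 8 above 0) summed to 229 to 597 CPM in WT and 273 to 362 CPM in CKO pools, and neuron markers (4 of 8) to 286 to 766 and 266 to 371 CPM. Endothelial markers (2 of 7 tested) were at 18.7 to 90.2 and 14.1 to 33.7 CPM, with Cdh5 and Esam at 0 reads in a pool, and mural markers (2 of 6) at 35.8 to 102 and 51.3 to 95 CPM, with Kcnj8 and Abcc9 at 0. The part of any of these cell types in the levels of the 45 genes was not tested.

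Longer genes had higher log2 fold changes across the whole table, with a Spearman rho of 0.24 between log2 fold change and exon length over 20663 genes of known length. Over the 45 genes rho was 0.19, and genes are not independent replicates. Of the 45, the 22 longer than 4.68 kilobases had a median log2 fold change of 0.38 and the 23 others 0.18. All genes tested had medians of 0.14 above that length and -0.18 at or below it. Protein-coding genes tested had medians of 0.14 and -0.14 on the same split. The part of length in the difference between the 45 and all genes was not tested.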

How the data were processed

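Smart-Seq2 RNA-seq of 6 pools (3 WT, 3 CKO) was used. The authors deposited raw read counts per gene symbol in 24 tables, 1 per run, made with Bowtie2 and HTSeq on GRCm38 per the submitters' processing notes. The sources used here do not give versions, annotation or counting settings. The method does not mark strand, and 16 of the 45 genes overlap a gene on the other strand. Reads with several alignments were listed at 0 in every table, so reads of near-identical genes may lie on any copy, which makes genes such as Hmgb2, with processed copies, uncertain. The 5 summary lines that name no gene were left out; reads that were unaligned, ambiguous or outside genes made up 35.1% to 49.1% of the total per pool.

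Counts of the 4 runs of a pool were summed. Genes kept by filterByExpr (21477) were fitted with edgeR 4.0.16 (R 4.3.3, TMM, robust quasi-likelihood F test, two-sided), with Benjamini-Hochberg adjustment over all of them and a threshold of 0.05. The labels name the pools but not their animals, so p-values describe the spread among these pools, which may be technical. An exact permutation test over 3 against 3 pools cannot give a p under 0.1 and was 0.1 for each gene whose pools did not overlap. The common biological coefficient of variation was 0.725, and intervals from read counts would cover counting error only. The edgeR step was tested on simulated data. Promoters are from RefSeq, and the first window was used where a gene had more than 1. Gene positions and exon lengths are from GENCODE M21, matched by symbol.

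The 45 genes, the other lists and the motifs were chosen with earlier results of these data known. Full statistics are given for Mki67, Top2a, Ccnb1, Cdk1, Aurkb, Plk1, Cenpf, Foxm1 and Hmgb2 and for each gene with an unadjusted p under 0.05 or with pools that did not overlap, and promoters for the 4 smallest p-values. Other genes are named for their level per length or in single pools. Alternatives were DESeq2 1.42.0, its size factors, no filter on low counts, a replicate block, each library alone and leaving out each pool.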

Additional observations from a re-analysis of the deposited data

How the results depend on the processing

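None of the 45 genes passed an adjusted p of 0.05 under any alternative, DESeq2 included, which called 124 of all genes and gave 8 of the 45 higher and 2 lower at an unadjusted p under 0.05 (17.8% and 4.44%, against 4.84% and 4.48% of all genes). The count of the 45 with a log2 fold change above 0 ranged from 24 to 33. Size factors in place of TMM and no filter on low counts turned no direction; with no filter the median of all genes moved from -0.06 to 0.07. With library 1 alone, 44 of the 45 had enough reads to be tested, and their median was 0.66. At an unadjusted p under 0.05, 4 were higher and 1 lower (9.09% and 2.27%, against 3.59% and 2.42% of all genes). In each CKO pool, 10 of the 45 were higher and 2 lower (22.2% and 4.44%, against 7.97% and 7.99% of all genes). Plk1 turned to -0.55 and the S phase median to 0.15. With library 2 alone, 1 gene was higher and 0 lower at an unadjusted p under 0.05 (2.22% and 0%, against 1.9% and 1.57% of all genes). In each CKO pool, 3 were higher and 0 lower (6.67% and 0%, against 6.37% and 4.26% of all genes). Log2 fold changes turned in Ccnb1 (-0.33), Cdk1 (0.12), Aurkb (-0.48), Cenpf (0.14), Foxm1 (-0.13) and the S phase median (0.10).

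Leaving out a pool gave 2 to 8 genes higher and 0 to 1 lower at an unadjusted p under 0.05. Those shares were 4.44% to 17.8% and 0% to 2.22%, against 1.73% to 6.65% and 0.958% to 3.87% of all genes. The median of the 45 was 0.07 to 0.51 and the S phase median -0.18 to 0.04. In each CKO pool, 7 to 13 genes were higher and 0 to 2 lower. With fewer pools, overlap is rarer for every gene: the shares of all genes were 11.5% to 16.5% higher and 11.4% to 15.6% lower. The extremes were without CKO pool 3 (2 genes higher and the median of 0.07), without WT pool 1 (13 higher in each CKO pool, 28.9% against 12.2% of all genes, the medians of 0.51 and 0.04) and without WT pool 2 (2 lower in each CKO pool, 4.44% against 15.6%). Without CKO pool 2 the median was 0.50 and 12 genes were higher in each CKO pool (26.7% against 11.9%). Of these fits, Birc5 passed an unadjusted p of 0.05 only in that without WT pool 2. Signs turned in Cdk1 (-0.41 to 0.70), Aurkb (-0.35 to 0.75), Plk1 (-0.15 to 0.77), Cenpf (-0.79 to 0.94), Foxm1 (-0.77 to 0.52) and Hmgb2 (-0.41 to 0.11).

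Pool numbers did not pair the pools: deviations of same-numbered pools correlated at 0.056, 0.022 and -0.028. With a replicate block, 3 genes were higher and 0 lower at an unadjusted p under 0.05 (6.67% and 0%, against 2.88% and 1.26% of all genes). The median of the 45 was 0.46 and of the 69 wider genes 0.89, Cdk1 turned to 0.10 and the S phase median to 0.05. The cause of these shifts was not tested. Some genes had only a few reads in a pool. The parts of depth and of the spread between pools and libraries in the precision were not tested. Alternatives for pools that do not overlap and for the wider lists were chosen after seeing the data.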
